A study of Mus musculus with 6 samples.

Results

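Transcripts of the adrenal X-zone and of the AKR1C enzyme family were examined in mice with deletion of the Hippo kinases MST1 and MST2 in steroid-producing cells. The genes were chosen by symbol and number 10: Akr1c18, Pik3c2g and Thrb, which mark the X-zone, and Akr1c6, Akr1c12, Akr1c13, Akr1c14, Akr1c19, Akr1c20 and Akr1c21, the relatives of Akr1c18. A gene was represented by the probe set that carries its symbol alone. Of these 10 genes, 9 were measured, each by 1 probe set, out of 19505 genes on the array. Akr1c20 was not analysed here.

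Mutant mice (n = 3) were female, aged 2 months, and of genotype Mst1flox/flox;Mst2flox/flox;Nr5a1-cre. Control mice (n = 3) were female, of the same age, and of genotype Mst1flox/flox;Mst2flox/flox, so both groups carried the floxed alleles and the recombinase was present in mutants alone; mice with the recombinase and no floxed allele were not analysed here. Nr5a1 is the gene of steroidogenic factor 1, and its regulatory sequences drive the recombinase in cortical cells. The whole glands profiled also hold medulla, capsule and vessels, and may hold adhering tissue. Recombination in other organs was not examined here. Each animal gave 1 Affymetrix whole-transcript array.

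The X-zone is the innermost layer of the cortex in young mice, next to the medulla. It descends from the fetal adrenal, regresses at puberty in males and during the first pregnancy in females, and is therefore still present in young virgin females. AKR1C enzymes are NADPH-dependent reductases of ketosteroids, and AKR1C18 inactivates progesterone by reducing its side chain. Pik3c2g encodes a class II phosphoinositide 3-kinase, and Thrb a nuclear receptor for thyroid hormone, both of which are enriched in X-zone cells. The comparison of mutant with control glands asks whether these transcripts differed when the kinases were deleted.

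In the RefSeq gene table of mouse assembly GRCm38.p6 the Akr1c genes form a single cluster on chromosome 13, in the order Akr1c14, Akr1c18, Akr1c13, Akr1c19, Akr1c12, Akr1c6, Akr1c20 and Akr1c21, with Akr1e1 next to it. RefSeq promoter windows matched 9 of the 10 genes, Pik3c2g and Thrb with 2 windows each, and the 250 bases before each gene's start were compared. Akr1c13 and Akr1c12 lie on opposite strands and have near-copies of the same upstream sequence. Over 247 aligned columns, 235 bases were identical (95.1%), 11 differed and 1 had no base opposite it. In the other pairs of the 7 Akr1c windows the aligned stretch, gap columns counted, was between 52.4% and 61.3% identical. The windows of this pair are shown because their genes had unlike measured changes, and that of Akr1c18 because it defines the X-zone. Neither change of the pair passed the test given below. Signals of Akr1c12 were within the range of background probe sets, so no contrast between the 2 genes is read. They cover chr13:4190937-4191186 on the plus strand, chr13:4279400-4279649 on the minus strand and chr13:4150647-4150896 on the minus strand, each written 5′ to 3′ up to the base before the gene's start. Capitals mark bases of Akr1c13 and Akr1c12 that differ or have no base opposite inside the aligned stretch. The first 4 bases of Akr1c12 and the last 3 of Akr1c13 lie outside it and are in lower case. In Akr1c18 capitals would mark matches to the motifs described below, and it has none.
Akr1c13: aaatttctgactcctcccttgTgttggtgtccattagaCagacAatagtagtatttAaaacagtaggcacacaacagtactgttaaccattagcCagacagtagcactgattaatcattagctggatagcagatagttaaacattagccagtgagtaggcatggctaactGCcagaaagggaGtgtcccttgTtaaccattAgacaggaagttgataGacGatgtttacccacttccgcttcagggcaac
Akr1c12: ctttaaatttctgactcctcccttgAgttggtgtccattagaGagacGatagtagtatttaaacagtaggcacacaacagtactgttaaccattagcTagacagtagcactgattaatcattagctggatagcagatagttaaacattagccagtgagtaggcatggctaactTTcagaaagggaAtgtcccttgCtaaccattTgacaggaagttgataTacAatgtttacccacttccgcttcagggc
Akr1c18: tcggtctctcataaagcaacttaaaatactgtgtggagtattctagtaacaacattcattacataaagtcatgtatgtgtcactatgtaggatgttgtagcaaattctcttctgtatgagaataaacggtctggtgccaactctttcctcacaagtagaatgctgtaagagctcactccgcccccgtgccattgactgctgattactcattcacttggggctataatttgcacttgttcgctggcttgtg

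The windows were also searched on both strands for the letters bound by NR5A1 (AAGGTCA), for the shorter nuclear receptor motif contained in them (AGGTCA) and for the letters bound by TEAD factors, the partners of YAP (GGAATG). The letters of the TATA box (TATAAA) were searched for in the same way. The NR5A1 letters were in 0 of 11 windows of these genes, against 4.08% of all 32851 windows. The shorter motif was in 1 window, of Thrb, against 14% of all windows. The TEAD letters were in 3 windows, of Akr1c12, Akr1c6 and Thrb, against 12.6% of all. In Akr1c12 the match begins 68 bases before the gene's start and includes a base that differs in Akr1c13, whose window has no match. The TATA box letters were in 3 windows, of Akr1c6, Pik3c2g and Thrb, against 12.4% of all. A match describes the letters only.

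Array medians lay between 6.76 and 6.83 log2 units over 22206 probe sets, and their change between groups had a median of -0.01. Stk4, the gene of MST1, measured 8.14, 8.36 and 8.46 in mutants against 8.32, 8.66 and 8.94 in controls, with overlapping groups (log2 change -0.32, SE 0.19, limma adjusted p = 0.623). Stk3 was not analysed here. The sources used here do not say whether the Stk4 probes fall in deleted exons, so this value does not check the labels. All 7 measured cortex markers were bright, with list means of 18.19 to 18.3 in mutants and 18.27 to 18.31 in controls, whereas all 7 measured kidney markers were within 2.53 to 7.32, the values spanned by background probe sets and called the background range here. Liver markers were unequal. Albumin (Alb) measured 9.67, 14.7 and 9.52 in mutants against 10.98, 14.06 and 6.63 in controls, and for 5 of 6 liver markers the highest values of the 6 animals were those of mutant 2 and control 2.

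None of the 9 measured genes passed the test across all probe sets. At a limma adjusted p under 0.05, 0 of 9 were called, where 0.0721% of all probe sets were, and 2 of 9 had an unadjusted p under 0.05, where 10.4% of all probe sets did. Of the 9 genes, 5 were measured higher and 4 lower in mutants, and the median log2 change of 0.01 was close to that of all genes, -0.01. The 3 animals of each group did not overlap for 3 of the 9 genes, Akr1c13, Akr1c14 and Pik3c2g, where the groups did not overlap for 16.4% of all probe sets. Signals of Akr1c18, Pik3c2g, Thrb and Akr1c13 lay above the background range in both groups. Those of the other 5 lay within it in both groups, so that a difference in them is not told apart from one in background. The array medians, 6.76 to 6.83, lay within this range too, so such dim signals are common on the array and not particular to these genes.

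**Figure D1:**
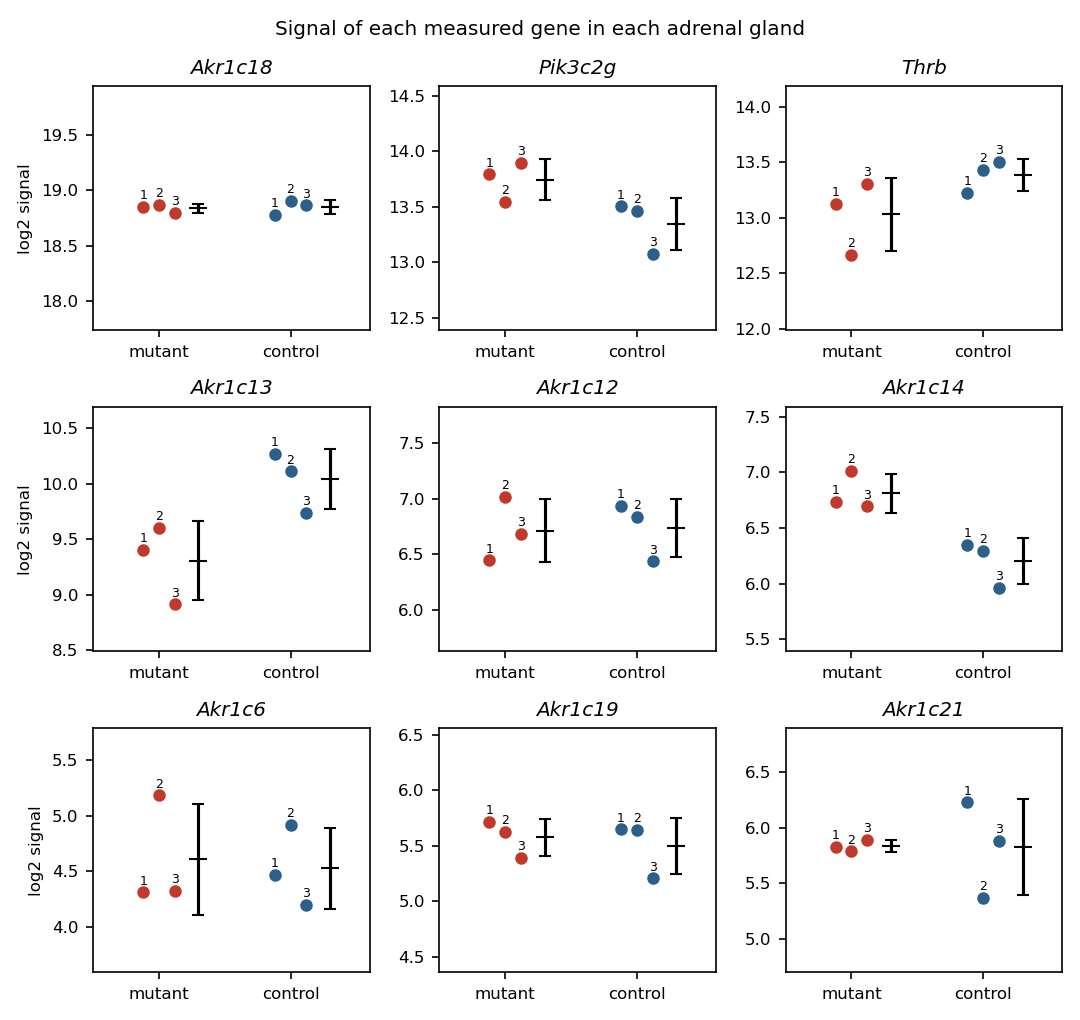
Log2 signal of the 9 measured genes in each animal (points, numbered by animal) with the group mean and SD (bars), mutant left and control right, every panel spanning the same number of log2 units. Akr1c18 hardly varied, the groups were apart for Akr1c13, Akr1c14 and Pik3c2g, and Akr1c6 was highest in the animals numbered 2 of both groups.

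Akr1c18, the defining enzyme of the X-zone, was bright in both genotypes, with overlapping groups. It measured 18.85, 18.87 and 18.79 in mutants against 18.77, 18.90 and 18.86 in controls. All 6 animals lay within 0.126 log2 units, and both the highest and the lowest value belonged to controls. The log2 change was -0.01 (SE 0.14, 95% interval -0.32 to 0.30, limma adjusted p = 0.988), so the interval leaves room for differences of that size in either direction. The SD of Akr1c18 within groups, 0.0534, was smaller than that of all but 1.18% of probe sets, whose median SD was 0.231. The SE from limma is drawn toward the spread of all probe sets, so the width of this interval does not describe Akr1c18 alone. The highest value anywhere in the table was 19.15, and whether signals this bright were saturated was not assessed. In whole glands the number of X-zone cells and the RNA per cell cannot be told apart.

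Pik3c2g was measured higher and Thrb lower in mutant glands, and neither passed. Pik3c2g measured 13.79, 13.55 and 13.90 in mutants against 13.50, 13.46 and 13.08 in controls. All 3 mutants lay above all 3 controls, although mutant 2 exceeded control 1 by little (log2 change 0.40, SE 0.18, 95% interval -0.01 to 0.80, limma adjusted p = 0.492). The thyroid hormone receptor gene Thrb measured 13.13, 12.67 and 13.30 in mutants against 13.23, 13.44 and 13.51 in controls. Mutant 3 lay above control 1, so the groups overlapped (log2 change -0.36, SE 0.20, 95% interval -0.80 to 0.09, limma adjusted p = 0.587). Mutant 2 was lowest of the 6, and without it the log2 change of Thrb was -0.17.

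The signal of Pik3c2g relative to Thrb within an animal separated the groups. The difference was 0.66, 0.88 and 0.60 log2 units in mutants against 0.28, 0.03 and -0.43 in controls, averaging 0.71 ± 0.15 in mutants and -0.04 ± 0.36 in controls (SD, n = 3 each). Mutants and controls differed by 0.75 (two-sided exact permutation p = 0.1, the smallest that 3 against 3 animals allow). This pair was 1 of 2 compared, with a Benjamini-Hochberg adjusted p of 0.1 (exact permutation test). It was picked after its values were seen, a choice that neither p-value corrects for, so the separation is a description. Nothing is read from the other pair, Akr1c13 and Akr1c12, since Akr1c12 lay within the background range.

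Akr1c13 had the lowest measured change of the 9 genes. It measured 9.41, 9.60 and 8.91 in mutants against 10.27, 10.11 and 9.74 in controls. Every mutant lay below every control, by the least for mutant 2 and control 3. Signals averaged 9.31 ± 0.36 in mutants and 10.04 ± 0.27 in controls (SD, n = 3 each), a measured 1.66-fold difference (log2 change -0.73, SE 0.22, 95% interval -1.24 to -0.22) that did not pass over all probe sets (limma adjusted p = 0.315). The change lay between -0.88 and -0.54 whichever animal was left out. The list mean of 5 measured zona glomerulosa markers was 13.51, 13.92 and 13.49 in mutants against 14.19, 14.01 and 14.25 in controls, and 0 of the 5 passed. The groups were apart for Agtr1b (log2 change -1.21, mutant mean within the background range) and Hsd3b6 (-1.003), and overlapped for Cyp11b2 (-0.24), Dab2 (-0.15) and Agtr1a (0.06). Over all probe sets the groups did not overlap for 16.4%. The part of these markers in the Akr1c13 difference was not tested.

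Akr1c12, whose upstream sequence nearly copies that of Akr1c13, had a change near 0. It measured 6.44, 7.01 and 6.68 in mutants against 6.94, 6.83 and 6.43 in controls, and the groups overlapped almost throughout (log2 change -0.02, SE 0.20, 95% interval -0.49 to 0.45, limma adjusted p = 0.984). Akr1c12 lay within the background range, and genes with close copies can share probes, which was not tested here, so the values of both are uncertain.

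Akr1c14, a reductase of steroid ketones at the edge of the cluster, had the highest measured change of the 9. It measured 6.73, 7.01 and 6.69 in mutants against 6.35, 6.29 and 5.96 in controls. All mutants exceeded all controls, but all values lay within the background range. The measured difference was 1.53-fold (log2 change 0.61, SE 0.17, 95% interval 0.22 to 1.004) and did not pass (limma adjusted p = 0.278). The list mean of 5 measured endothelial markers was 13.12 to 13.18 in mutants and 12.5 to 12.77 in controls. Groups were apart for 4 of these 5 genes and overlapped for Tek, where the groups did not overlap for 16.4% of all probe sets. Of the 5 genes, 0 passed (lowest limma adjusted p = 0.239, Cdh5). The list mean of 5 measured fibroblast markers was 12.12, 11.83 and 11.24 in mutants against 11.05, 10.81 and 11.34 in controls, with groups apart for 1 gene, Lum, and 0 past the threshold. Their part in the higher Akr1c14 and Pik3c2g signals was not tested.

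**Figure D2:**
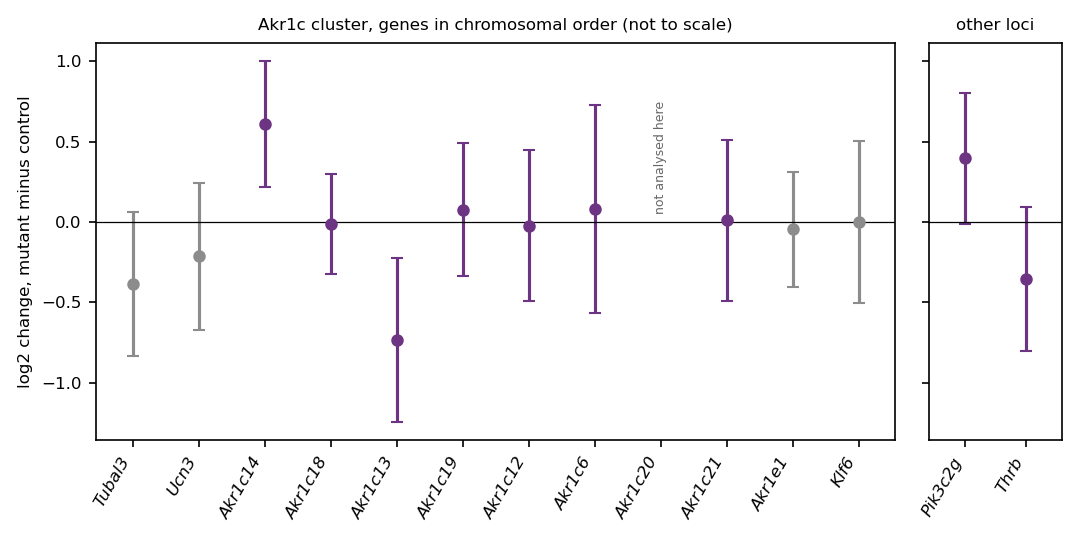
Log2 change, mutant minus control, with its 95% interval from limma for the genes of the Akr1c cluster and 2 protein-coding neighbours on each side in chromosomal order (left), and for Pik3c2g and Thrb (right); purple marks the genes described and grey the neighbours. Akr1c14 has the highest and Akr1c13 the lowest change, with Akr1c18 between them at -0.01, and the intervals of all the other genes shown include 0.

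Akr1c6, a steroid dehydrogenase known chiefly from mouse liver, was highest in the same animals as most liver markers. It measured 4.31, 5.18 and 4.33 in mutants against 4.47, 4.92 and 4.196 in controls. The highest value in each group was that of animal 2, as for albumin, although all values were within the background range. Transthyretin (Ttr), another liver gene, measured 5.45, 8.86 and 5.36 in mutants against 5.58, 8.67 and 5.11 in controls. The log2 change of Akr1c6 was 0.08 (SE 0.28, 95% interval -0.57 to 0.72, limma adjusted p = 0.953). It was -0.02 with the liver marker mean of each animal as a covariate and -0.01 without both animals numbered 2. Both settings were added after seeing the data, and the change was already near 0 without them. The part of the liver markers in the Akr1c6 values was not tested.

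**Figure D3:**
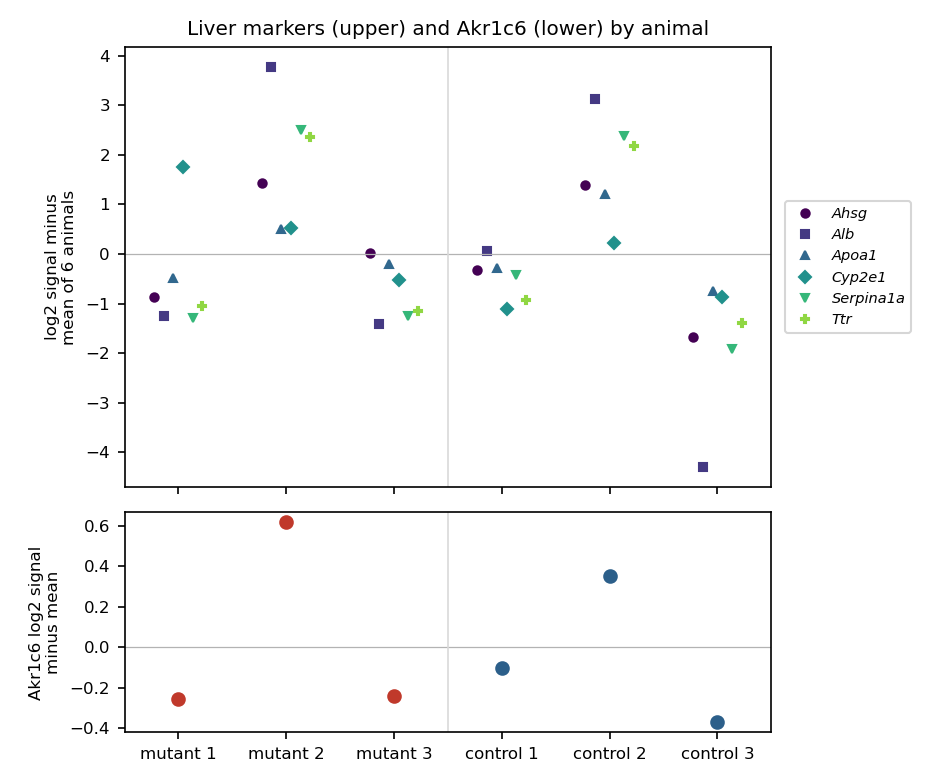
Log2 signal of 6 liver markers (upper) and of Akr1c6 (lower) in each animal, relative to each gene's mean over the 6 animals, mutants left of controls. Mutant 2 and control 2 are highest for 5 of the 6 markers and for Akr1c6, the exception among markers being Cyp2e1, highest in mutant 1.

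Akr1c19, and Akr1c21, a reductase known from mouse kidney, were dim in all animals. Akr1c19 measured 5.71, 5.62 and 5.39 in mutants against 5.65, 5.64 and 5.21 in controls (log2 change 0.08, SE 0.18, limma adjusted p = 0.92). Akr1c21 measured 5.83, 5.79 and 5.89 in mutants against 6.23, 5.37 and 5.88 in controls (log2 change 0.01, SE 0.22, limma adjusted p = 0.993). Groups overlapped for both. Mutants varied less than controls in Akr1c21, with SDs of 0.0534 in mutants and 0.432 in controls, a difference in spread that was not tested.

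Beyond the cluster's ends, 0 of the 4 nearest protein-coding neighbours passed. Akr1e1, the next aldo-keto reductase gene, measured 12.12, 12.14 and 12.20 in mutants against 12.27, 11.97 and 12.36 in controls (log2 change -0.05, SE 0.16, limma adjusted p = 0.952). Klf6, a zinc-finger transcription factor, differed by 0.0012, and Ucn3 and Tubal3, both within the background range, by -0.21 and -0.39.

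Of other aldo-keto reductases, 7 of 9 listed genes were measured, and 0 rose or fell past the threshold. Changes were below 0 for 6 of the 7, with a median of -0.16, against a median of -0.01 over all genes. Akr1d1, which reduces the double bond of the steroid A ring, measured 15.42, 15.89 and 15.20 in mutants against 16.29, 16.23 and 16.07 in controls. Its groups did not overlap (log2 change -0.69, SE 0.20, limma adjusted p = 0.293). Akr1b8 measured 14.76, 14.97 and 15.23 in mutants against 15.34, 15.26 and 15.31 in controls (log2 change -0.32, SE 0.16, limma adjusted p = 0.554). Akr1cl, an Akr1c-like gene outside the cluster, measured 16.49, 16.71 and 16.60 in mutants against 16.38, 16.44 and 16.39 in controls, and was the member of this list measured higher (log2 change 0.19, SE 0.14, limma adjusted p = 0.698).

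Genes that bear on the formation or regression of the X-zone in mouse studies were measured for 11 of 14 listed. Past the threshold 0 rose and 0 fell, 6 had changes above 0 and 5 below, with a median of 0.05. The nuclear receptor Nr0b1, without which the X-zone persists in mice, measured 9.90, 9.82 and 9.32 in mutants against 11.03, 11.08 and 10.92 in controls. Its groups were well apart, and its adjusted p was just over the threshold (log2 change -1.33, SE 0.19, limma adjusted p = 0.0529). The inhibin subunit gene Inha measured 15.02, 15.06 and 14.92 in mutants against 14.39, 14.48 and 14.37 in controls (log2 change 0.59, SE 0.14, limma adjusted p = 0.192). Fshr, the follicle-stimulating hormone receptor gene, had a log2 change of -0.55 within the background range (SE 0.19, limma adjusted p = 0.375).

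The thyroid hormone genes around Thrb were measured for 15 of 18 listed, and 0 passed in either direction, with 7 changes above 0, 8 below and a median of -0.04. Dio2, the deiodinase that activates thyroid hormone inside cells, measured 6.87, 7.14 and 6.30 in mutants against 6.04, 5.45 and 5.53 in controls. The groups did not overlap but lay within the background range (log2 change 1.096, SE 0.25, limma adjusted p = 0.191). Slc16a10, a transporter of aromatic amino acids and thyroid hormone, measured 8.06, 7.61 and 7.39 in mutants against 8.32, 8.87 and 8.33 in controls (log2 change -0.82, SE 0.23, limma adjusted p = 0.276). The second thyroid hormone receptor gene, Thra, differed by 0.12 (SE 0.16).

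Phosphoinositide 3-kinase genes other than Pik3c2g were measured for 10 of 10 listed, with 0 past the threshold, 6 changes above 0 and a median of 0.19. The other class II genes, Pik3c2a and Pik3c2b, differed by 0.38 (SE 0.18) and, within the background range, by 0.33 (SE 0.17), where Pik3c2g differed by 0.40. The smallest p-values were those of the class I catalytic subunits Pik3cg (0.56, SE 0.18, limma adjusted p = 0.341, within the background range) and Pik3cb (0.51, SE 0.19, limma adjusted p = 0.413). Of the genes for progesterone receptors and for steroid dehydrogenases and reductases that act beside AKR1C18, 8 of 10 were measured and 0 passed, with 3 changes above 0, 5 below and a median of -0.02. Hsd3b6, an outer-cortex enzyme that makes progesterone and also 1 of the zona glomerulosa markers above, measured 14.62, 15.48 and 14.56 in mutants against 15.88, 15.80 and 15.99 in controls (log2 change -1.003, SE 0.25, limma adjusted p = 0.227). Hsd3b1, which makes progesterone through most of the cortex, differed by -0.02 (SE 0.13), and Hsd11b2, which inactivates corticosterone, by 0.84 within the background range (SE 0.23, limma adjusted p = 0.263). Over the 5 lists the groups did not overlap for 14 of 51 measured genes, where 16.4% of all probe sets did so.

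**Figure D4:**
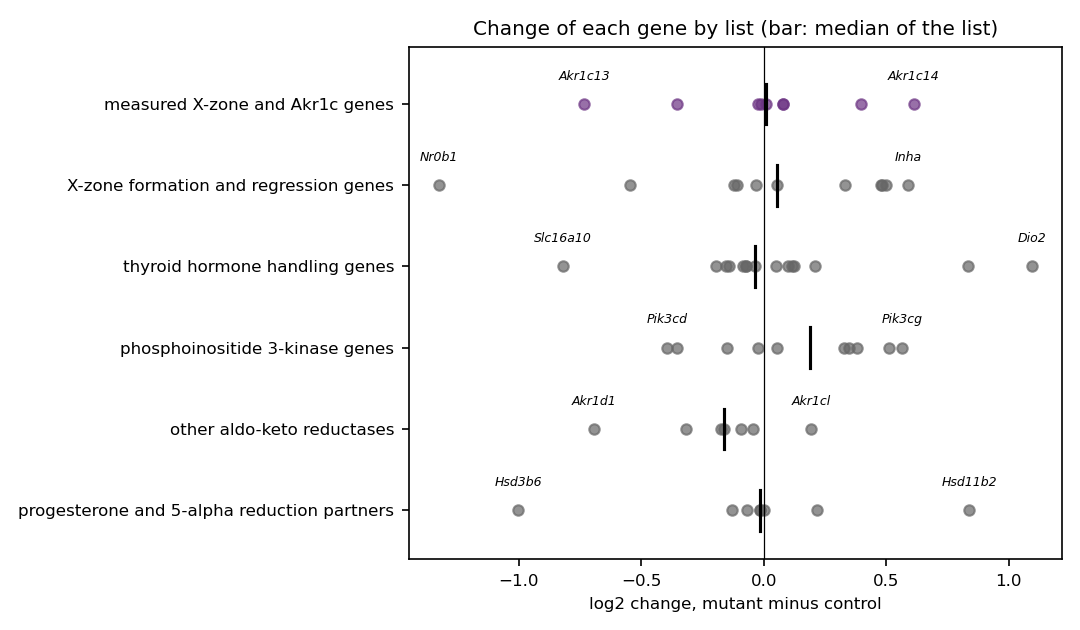
Log2 change, mutant minus control, of each measured gene (points) in the X-zone and Akr1c set and in 5 related lists, with the median of each (bars) and the names of the genes at either end. No gene shown passed at a limma adjusted p under 0.05. Nr0b1, at -1.33, is farthest from 0, and its limma adjusted p of 0.0529 is under the alternative threshold of 0.1.

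The genes whose centred signals followed the X-zone markers most closely over the 6 animals were found by mean absolute difference. For Akr1c18 they were Nupr1l, Snx3 and Trmt2a, at 0.0207 to 0.0257 log2 units, and 1989 genes lay within 0.1, since any gene that hardly varies resembles it. For Pik3c2g they were Bicd2 (0.0244), Ldc1 (0.0364) and Rita1 (0.0417), where the deviations of Pik3c2g from its own mean averaged 0.199. Within 0.1 of Pik3c2g lay 82 genes. For Thrb they were Zfp653 (0.0586), Acox3 (0.0593) and Tmco5 (0.0637), against deviations of 0.209, and 71 genes lay within 0.1. Group means of Nupr1l, Ldc1, Rita1, Zfp653 and Tmco5 were within the background range, so their patterns are not told apart from background. These likenesses were picked as the closest of all genes over 6 animals and are a description.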

How the data were processed

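The authors deposited a log2 signal for every probe set and animal, made from whole-gland total RNA. Transcriptome Analysis Console 4.0 is named in the submitters' processing notes. The background correction and normalization applied are not given in the sources used; a step that forces arrays to 1 distribution would hide shifts shared by most genes. The 6640 control probe sets were left out, leaving 22206, of which the platform annotation gave 1 symbol to 19572, several to 0 and none to 2634. Entrez identifiers of all 19572 were found in the gene table, which changed 0 symbols.

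The difference, mutant minus control, was tested over all 6 arrays by limma 3.58.1 (lmFit, eBayes; R 4.3.3), two-sided, with Benjamini-Hochberg adjustment over all probe sets, and tested on simulated data. SEs and intervals come from this fit. The members and lists were chosen with earlier results of these data known. Named genes were the members, Stk4, up to 3 genes of smallest p per list, the closest patterns and the cluster's neighbours; Thra, Pik3c2b, Hsd3b1 and the marker genes were added after their values were seen. Promoter windows, from RefSeq, were aligned over their whole length (global alignment) with Biopython 1.88, with no penalty for gaps at the ends. The number of animals limits the precision. Over all probe sets, animals of 1 number hardly deviated together from their group means (correlations -0.09, 0.08 and -0.07). This cannot exclude a pairing or a factor that bears on fewer genes, such as the liver markers. Animals were treated as unpaired in the main fit. Alternatives were other scalings, filters, variance models, covariates, a replicate block and each animal left out; the liver marker covariate and leaving out both animals numbered 2 were added after seeing the data. Each gene had 1 probe set, so averaging probe sets gave no other value.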

Additional observations from a re-analysis of the deposited data

How the results depend on the processing

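Under all 18 alternatives 0 of the 9 genes passed where tested, with a lowest adjusted p of 0.178 (limma, Akr1c13 among brighter probe sets). Among brighter probe sets only Akr1c13, Akr1c18, Pik3c2g and Thrb were tested, since the others fell below the median level. Akr1c13, Akr1c14, Pik3c2g and Thrb kept their measured direction under every alternative run, with log2 changes of -0.88 to -0.54, 0.49 to 0.69, 0.26 to 0.56 and -0.49 to -0.15. The count of all probe sets past the threshold, 16, was far less stable, and the cause was not tested. It was 175 with a trend and robust prior, 108 at an adjusted p under 0.1, 92 among brighter probe sets, 48 with array weights, 41 among probe sets with 1 symbol, 38 with quantile normalization and 32 with a common median. It was 8 with the negative control or the liver marker covariate, 2 with the adipocyte covariate, 2 without both animals numbered 2, 1 with a replicate block and 1 to 15 with single animals left out (1 without control 1, 2 or 3, and 6 without mutant 2). The replicate block changed no call among the 9 genes. Genes of the 5 lists were not followed through the alternatives, although Nr0b1 (limma adjusted p = 0.0529) is under 0.1.

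Genes with changes near 0 turned sign, with the cause not tested. With single animals left out, Akr1c12 ranged over -0.17 to 0.11, Akr1c18 over -0.04683 to 0.01637, Akr1c19 over -0.06814 to 0.17, Akr1c21 over -0.22 to 0.21 and Akr1c6 over -0.21 to 0.28. Akr1c12 was 0.11 with the adipocyte and 0.05072 with the negative control covariate. Akr1c18 was 0.02405 with quantile normalization and 0.0007 without both animals numbered 2. Akr1c21 was -0.0239 with array weights, -0.01857 with a common median, -0.1949 without both animals numbered 2, -0.01303 with the negative control covariate and -0.0065 with quantile normalization. Akr1c6 was -0.01823 with the liver covariate and -0.01248 without both animals numbered 2. The 5 genes within the background range are limited by signal as well as by the number of animals.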

Other observations

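Thrsp, a thyroid hormone responsive gene of fat synthesis, varied widely among animals of both groups. It measured 15.43, 13.35 and 12.77 in mutants against 11.93, 13.26 and 13.84 in controls, with overlapping groups (log2 change 0.83, SE 0.70, limma adjusted p = 0.743). The adipocyte list, over 5 measured genes, had means of 12.9, 10.75 and 9.82 in mutants against 8.34, 10.21 and 11.88 in controls, in the same order of animals as Thrsp within each group, and their part in the Thrsp values was not tested.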
